A study of Mus musculus with 12 samples.

Results

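The nuclear genes of oxidative phosphorylation are described here in oocytes cut from primordial and primary follicles of mouse ovaries that had been cultured with or without an inhibitor of AMPK, the cell's energy sensor. Members were all protein-coding rows of the count table with a symbol that begins with Nduf followed by a, b, c, s or v, with Uqcr, with Cox4 to Cox8 or with Atp5, or that is Sdha, Sdhb, Sdhc or Sdhd. This gave 94 rows of 55401, among 21897 protein-coding rows, and no measured value entered the choice. By symbol they were 38 rows for complex I, 4 for complex II, 8 for complex III, 18 for complex IV and 18 for complex V. Those of complex V hold Atp5o under separate identifiers, and Atp5s is placed there by its symbol. The other 8 were Ndufaf assembly factors of complex I, which the symbol rule also takes in. Ovaries came from female mice of the C57Bl/6j x CBA/J cross aged 7 to 8 days and were cultured for 5 days with DMSO (control, labelled sham) or with dorsomorphin (DM). DM inhibits AMPK and also other kinases, and its dose for these libraries is not given in the sources used here. The 4 groups were oocytes from primordial control, primordial DM, primary control and primary DM follicles, each with 3 libraries of pooled oocytes that laser capture had cut from fixed, stained sections, and the RNA was amplified before sequencing. The study describes the libraries of a group as biologically independent, and neither the labels nor the methods say which ovaries went into which library, so p-values measure the spread between these libraries.

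Oxidative phosphorylation makes most of the ATP of a resting cell. Complex I (NADH dehydrogenase) and complex II (succinate dehydrogenase) pass electrons to ubiquinone, complex III hands them to cytochrome c, complex IV (cytochrome c oxidase) reduces oxygen, and complex V (ATP synthase) uses the proton gradient that results. Apart from complex II, which is wholly nuclear, each complex joins nuclear subunits to a few encoded in mitochondrial DNA, and dormant oocytes have been described as holding little assembled complex I.

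Total counts ranged from 14034586 to 42639326 per library, and between 12.3% and 39.2% of protein-coding rows had at least 10 counts. A count of 0 allows up to 3 counts, which is 0.0704 to 0.214 CPM, the unit used here for counts scaled to the library total. The limit covers counting error only, because reads of amplified RNA that carry no molecular identifier may copy 1 molecule many times. Ddx4, which marks germ cells, had at least 10 counts in all 12 libraries, from 11 to 47451. Of 15 oocyte markers, between 2 and 12 had at least 10 counts in a library, and their summed level was 30.9 to 1279 CPM in primordial control, 16.8 to 1074 in primordial DM, 11.3 to 1462 in primary control and 56.4 to 1115 in primary DM. Markers of the neighbouring cells were counted as well. Of 11 granulosa markers, 3 to 9 had at least 10 counts in a library, with sums of 540 to 2636 CPM, 265 to 1170 CPM, 1052 to 8045 CPM and 662 to 11125 CPM in the same order of groups. Of 10 stroma and theca markers, 4 to 8 had at least 10 counts, with sums of 2545 to 3518 CPM, 2164 to 4086 CPM, 2649 to 6492 CPM and 2177 to 12531 CPM. Cyp19a1, Hbb-bs and Hba-a1 were at 0 in every library. The share of each value that comes from cells other than the oocyte was not tested.

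Between 17 and 60 of the 94 members were counted in a library, and fewest in primary control 3 and primary DM. In oocytes from primordial follicles, 60, 38 and 32 of the 94 members had at least 10 counts in control libraries 1, 2 and 3, and 43, 38 and 26 after DM. The numbers were 40, 42 and 17 for primary control and 20, 18 and 19 for primary DM. The primary DM libraries thus lay below all 3 primordial DM libraries, whereas primary control 3 lay below them and primary controls 1 and 2 within their range. Member detection moved with the detection of genes at large, since 13.6% to 16.3% of protein-coding rows had at least 10 counts in the primary DM libraries, 12.3% in primary control 3 and 16.6% to 39.2% in the rest. In all libraries a larger share of members than of protein-coding rows was counted, 18.1% to 63.8% against 12.3% to 39.2%. Thinned to the smallest library total, the members counted were 48, 33 and 30 in primordial control, 37, 25 and 22 in primordial DM, 33, 42 and 12 in primary control and 16, 12 and 18 in primary DM. In bulk samples such as these, fewer cells of a type and less RNA per cell cannot be told apart.

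**Figure D1:**
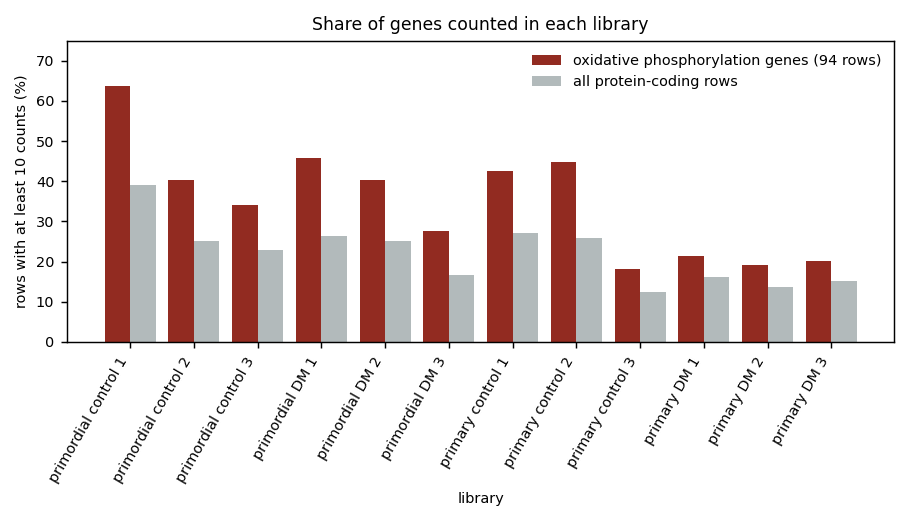
Percent of rows with at least 10 counts in each of the 12 libraries, for the 94 oxidative phosphorylation genes (dark red) and for all 21897 protein-coding rows (grey). The dark red bars stand above the grey ones in every library, and the lowest 4 are primary control 3 and the 3 primary DM libraries, at 18.1% to 21.3%.

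Over all libraries, 76 of the 94 members reached 10 counts at least once, 30 did so in 6 or more libraries and 18 in none. Ndufa4l2, Ndufaf3, Cox7a1, Cox7b2 and Cox8c had no count in any library. Within groups, 21 members had at least 10 counts in all 3 primordial controls, 15 in all 3 primordial DM libraries, 13 in all 3 primary controls and 6 in all 3 primary DM libraries. Among the 6 were Atp5b, Atp5g3, Ndufs3, Sdha and Uqcrc2, a core protein of complex III, and all of these but Uqcrc2 had at least 10 counts in each of the 12 libraries. Of all members, 5.32% did so, against 4.78% of protein-coding rows.

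Atp5b, Atp5g3, Ndufs3 and Sdha serve complexes I, II and V, and on GRCm38 they lie at chr2:90894634-90904827 (Ndufs3, ENSMUSG00000005510.9), chr13:74322254-74350280 (Sdha, ENSMUSG00000021577.14), chr10:128083273-128090391 (Atp5b, ENSMUSG00000025393.12) and chr2:73908447-73911326 (Atp5g3, ENSMUSG00000018770.9), with counts taken over annotated exons. Atp5b, the catalytic beta subunit of ATP synthase, had 28975, 21356 and 9537 counts in primordial control, 19058, 21547 and 7090 in primordial DM, 20895, 7033 and 137 in primary control and 2704, 28 and 8473 in primary DM. Atp5g3, which encodes the proton-carrying c subunit, had 13285, 4995 and 12395 counts, then 2325, 6532 and 30804, then 15509, 7342 and 15, and then 23, 259 and 30 in the same order. Both had at least 2325 counts in all primordial libraries and in primary controls 1 and 2, and Atp5g3 was at 259 or fewer in the other 4 libraries. Sdha, the flavoprotein of complex II, had 8919, 714 and 37 counts in primordial control, 1598, 6767 and 2472 in primordial DM, 11766, 2711 and 1041 in primary control and 501, 5183 and 760 in primary DM, so its groups overlapped throughout. Ndufs3, a core subunit of complex I, had 7832, 28 and 15 counts in primordial control, 24, 39 and 4902 in primordial DM, 4424, 15 and 12059 in primary control and 26, 193486 and 32 in primary DM. The libraries with the most Ndufs3 counts, primary DM 2 and primary control 3, also had the most for Foxl2, a transcription factor of granulosa cells (474295 and 226837). Of the 11 granulosa markers, 3 had at least 10 counts in each of these libraries, namely Foxl2, Inha (10 and 4944) and Gja1 (29 and 18495). Nr5a2 had 7 and 3 counts and Kitl 3 and 2. Ddx4, the germ cell marker, had 47451 counts in primary DM 2, its highest, and 15 in primary control 3. The part of any cell type in the Ndufs3 level was not tested.

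The sequence just before the start of 4 genes is printed to set a pair that was counted in every library (Atp5b and Atp5g3) beside a pair that had no or few counts in the primary DM libraries and more in primordial DM (Ndufs8 and Cox5a). Each is 120 bases from RefSeq on GRCm38.p6 and overlaps no annotated exon. Capitals mark the pentamer CCAAT, and lower case the rest. The Atp5b stretch is at chr10:128083153-128083272 on the plus strand, that of Atp5g3 at chr2:73911327-73911446 on the minus strand, that of Ndufs8 at chr19:3912775-3912894 on the minus strand and that of Cox5a at chr9:57521112-57521231 on the plus strand. All are shown 5′ to 3′ on the strand of the gene.
Atp5b: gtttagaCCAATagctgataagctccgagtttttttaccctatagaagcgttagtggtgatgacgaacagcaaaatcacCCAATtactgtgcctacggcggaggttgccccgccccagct
Atp5g3: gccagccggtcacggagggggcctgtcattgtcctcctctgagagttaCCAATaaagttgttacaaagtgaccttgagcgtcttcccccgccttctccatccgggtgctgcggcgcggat
Ndufs8: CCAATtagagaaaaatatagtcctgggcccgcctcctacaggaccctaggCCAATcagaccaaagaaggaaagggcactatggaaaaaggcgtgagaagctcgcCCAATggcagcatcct
Cox5a: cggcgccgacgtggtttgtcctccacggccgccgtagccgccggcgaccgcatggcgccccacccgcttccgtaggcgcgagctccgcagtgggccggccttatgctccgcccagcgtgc

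Searched on both strands over the 250 bases before the start, CCAAT stood before 33 of the 74 member genes that have a promoter in the RefSeq table (44.6%) and before 37.5% of all 27025 genes there, counting a gene when any of its promoters held it (33.9% of 32851 single promoters). The NRF1-type motif, GCGC and TGCGC with 1 free base between them, stood before 14 of the 74 (18.9%), against 4.23% of all genes (3.74% of promoters), and the ETS-type motif CCGGAAG also before 14 (18.9%), against 7.83% (6.91% of promoters). The NRF1 and GABP factors that bind such sites are known regulators of respiratory chain genes. A match is a description of letters, CCAAT was added after the printed sequences had been seen, and neither longer motif stood in the 250 bases before Atp5b, Atp5g3, Ndufs8 or Cox5a.

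The summed level of complex V differed widely between libraries. It came to 1378, 958 and 1677 CPM in primordial control, 1201, 1221 and 1964 CPM in primordial DM, 1572, 1776 and 6.46 CPM in primary control and 103, 272 and 244 CPM in primary DM. All primordial DM libraries were therefore above all primary DM libraries, and primary control 3 was the lowest of the 12. With TMM-normalized CPM, which raises libraries whose counts sit on fewer genes, the values after DM were 818, 982 and 1950 in primordial and 171, 1059 and 594 in primary follicles, which overlap. These sums include a row for Atp5o that cannot be told apart from the gene Donson and that came to 509 CPM in primary control 2, 141 in primordial DM 1 and less elsewhere. Without it, complex V came to 1060, 1220 and 1960 CPM in primordial DM and 102, 272 and 244 CPM in primary DM, and with TMM to 722, 982 and 1945 against 171, 1059 and 594. The sum over all members was 2792 ± 860 CPM (SD, n = 3) in primordial control, 3307 ± 561 CPM in primordial DM, 3537 ± 844 CPM in primary control and 5922 ± 5861 CPM in primary DM. Without primary DM 2, the last of these would rest on 2256 and 2829 CPM.

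**Figure D2:**
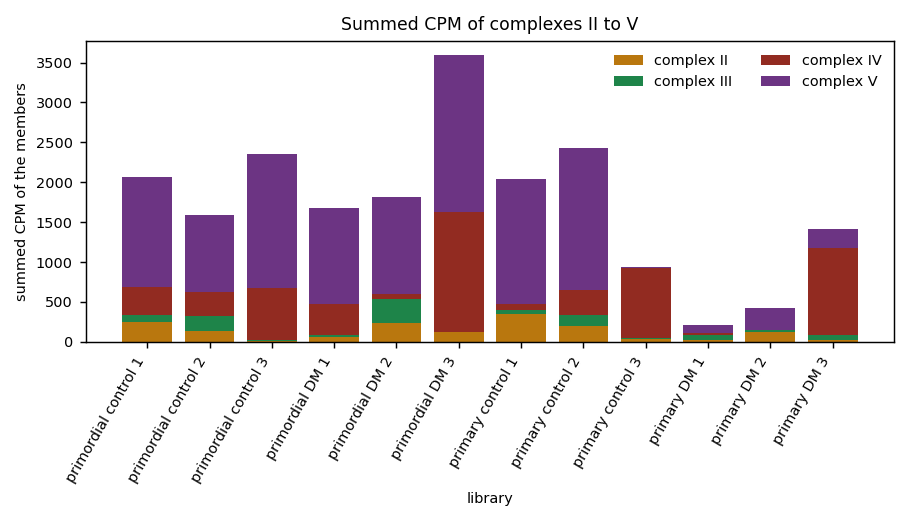
Summed CPM of the members of complexes II to V in each of the 12 libraries, stacked by complex. Complex V fills 958 to 1964 CPM in the 6 primordial libraries and in primary controls 1 and 2, and 6.46 to 272 CPM in the other 4, the Atp5o row that holds reads of Donson included.

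A few genes held most of the counts. The leading 5 members took 51.2% to 99.6% of all member counts in a library. Atp5b led in primordial control 1 and 2, primordial DM 1 and primary control 1, and Atp5g3 in primordial control 3, primordial DM 3 and primary control 2. Cox7b, a small subunit of complex IV, led in primary DM 3 with 37337 counts (37.6%), where the other libraries had 3 to 2226. Of the 76 members that reached 10 counts, 38 had over 50% of their summed CPM in 1 library (50%), and this was true of 66.8% of such protein-coding rows.

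Complex I had the widest range of members. Per kb of exon, Ndufs3 (210 CPM per kb) and Ndufb9 (31.4 CPM per kb) were among its highest, and the median of the 38 was 1.58 CPM per kb. Between 5 and 25 of the 38 had at least 10 counts in a library, with 5, 7 and 8 in primary DM 1, 2 and 3. Ndufs1, the largest core subunit, had 9015, 2 and 0 counts in primordial control, 440, 3 and 2 in primordial DM, 35, 2542 and 3 in primary control and 3, 0 and 4 in primary DM. Ndufv1, which binds NADH, had 3931, 1303 and 2 counts in primordial control, 68, 598 and 1 in primordial DM, 9849, 2 and 5 in primary control and 32, 3 and 6401 in primary DM. Both went from under 10 to over 1000 counts between libraries of the same group. Ndufa4 is now counted among the complex IV proteins and reached 10 counts in 7 libraries, up to 369, whereas its paralog Ndufa4l2 had none. Of the Ndufaf assembly factors, 4 of 8 never reached 10 counts, and Ndufaf5, Ndufaf2 and Ndufaf7 each had 98% to 99.5% of their level in 1 library.

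In complex II, Sdha was counted in all 12 libraries and Sdhd in few. Sdhb, its iron-sulfur subunit, had 393, 4090 and 131 counts in primordial control, 935, 1344 and 5 in primordial DM, 71, 31 and 24 in primary control and 326, 188 and 1 in primary DM. The membrane anchors Sdhc and Sdhd reached 40 and 150 counts at most, and Sdhc had at least 10 counts in 6 libraries, none of them primary DM. By length, Sdha (27.1 CPM per kb) and Sdhb (7.96 CPM per kb) were the highest. In complex III, Uqcrb (28.7 CPM per kb) came first only because primordial DM 2 held 10485 of its counts, or 99.6% of its level, and Uqcr11 (23.1 CPM per kb) came next. Uqcrc2 had 1313, 2700 and 177 counts in primordial control, 468, 2 and 1 in primordial DM, 1628, 1035 and 548 in primary control and 1333, 926 and 1029 in primary DM. Its primary DM libraries were alike, within 926 to 1333 counts, while its primordial DM libraries were not. Uqcrc1, the other core protein, had 13, 80 and 6 counts in primordial control, 0, 3 and 60 in primordial DM, 3, 33 and 0 in primary control and 0, 0 and 654 in primary DM. Uqcrfs1, the Rieske iron-sulfur protein, had 1756, 3 and 0 counts, then 33, 2 and 1, then 82, 0 and 2, and then 0, 0 and 194 in the same order of groups.

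Several subunits of complex IV have a ubiquitous and a tissue-specific form. Cox4i1 had 137, 20 and 64 counts in primordial control, 40, 26 and 20 in primordial DM, 256, 49 and 0 in primary control and 627, 1 and 6 in primary DM, while Cox4i2, a form known from lung, reached 10 counts in 3 libraries and was above Cox4i1 in primary control 2 (301 against 49) and primordial control 3 (70 against 64). Cox6a1 reached 358 counts, and Cox6a2, the form of heart and muscle, reached 1. Cox6b1 reached 210 counts, and Cox6b2, known from testis, 21 in primary control 3, where Cox6b1 had 0. Cox7a1, the other heart and muscle form, had none, and Cox7a2, the form of most tissues, had 2 at most. Cox7a2l, a relative of these that helps complex III and complex IV to associate, was by contrast the highest of the complex (142 CPM per kb), ahead of Cox7b (87.9 CPM per kb), and its paralog Cox7b2 had none. Cox8a reached 54 counts, Cox8b 2 and Cox8c 0.

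In complex V, Atp5g3 (153 CPM per kb) was the highest, followed by a row for Atp5o (ENSMUSG00000116933.1, 110 CPM per kb) that spans the neighbouring gene Donson on the same strand. The counts of that row differed from those of Donson by -1 to 10 in every library, so its value cannot be told apart from that of Donson, and the other Atp5o row had 12 counts at most. Atp5b had 96.1 CPM per kb. The c subunit is made from 3 genes. Atp5g1 had 3435, 39 and 1666 counts in primordial control, 9233, 1914 and 315 in primordial DM, 6627, 2309 and 1 in primary control and 2, 3 and 4 in primary DM. Atp5g2 had 93, 5440 and 13 counts, then 5129, 19 and 44, then 9301, 2 and 7, and then 3, 5 and 4 in the same order. All 3 c-subunit genes were therefore lower in each primary DM library than in any primordial DM library, as CPM. The alpha subunit gene Atp5a1 had 1069, 726 and 1600 counts in primordial control, 66, 1817 and 2877 in primordial DM, 47, 261 and 34 in primary control and 23, 2 and 1 in primary DM. Counts may also be shared for Ndufb8 and Ndufb2, which had the same value as an overlapping predicted gene in 3 and 2 of the libraries where they had at least 10 counts, so those members are uncertain as well. On the opposite strand, exons of 29 members overlap another gene, among them Cox4i1, Cox5a, Atp5a1 and Atp5j. The strand setting of the counting is not given, and whether these members hold reads of their neighbours was not tested.

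**Figure D3:**
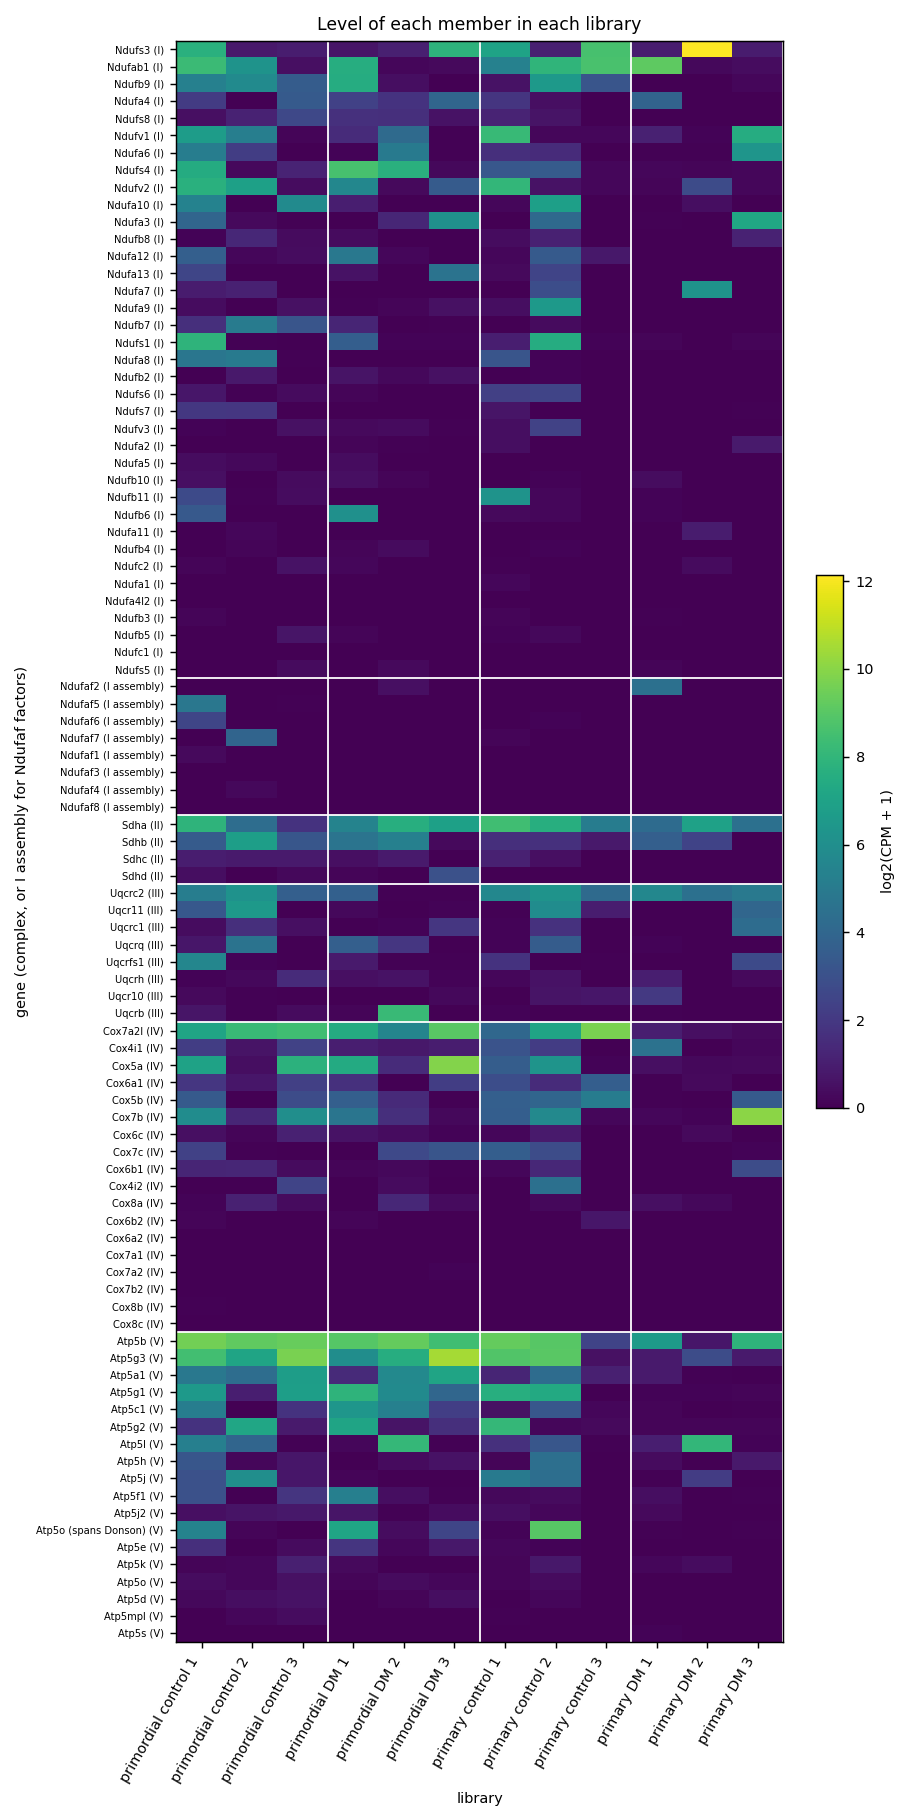
Level of 93 members (rows, grouped by complex) in the 12 libraries (columns, 3 per group between white lines), as log2 of CPM plus 1 by colour. Atp5b and Atp5g3 are bright in the 6 primordial libraries and primary controls 1 and 2, and most rows are dark in primary control 3 and the primary DM libraries.

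DM was compared with control within each stage to ask how the transcripts differed after DM, which inhibits AMPK and also other kinases. In oocytes from primordial follicles, 0 of 48 members tested passed an adjusted p of 0.05 in edgeR's quasi-likelihood test, as did 0.0149% of all 6699 genes, and 1 member passed at an unadjusted p under 0.05, a lower one (4.85% of genes were lower and 2.48% higher at that level). The log2 fold change was above 0 in 28 of the 48, against 52% of genes. The members passed the filter on low counts in 48 of 94 cases, and one that passed only through the group where it was high had to differ, so counts over those tested support nothing by themselves. The 1 member was Atp5j, the F6 coupling factor of ATP synthase, with control counts of 272, 2354 and 10 and DM counts of 4, 0 and 0. It was the only member whose groups did not overlap (8.81% of all genes tested were lower without overlap and 3.78% higher), and its log2 fold change was -9.19 (SE 4.02, adjusted p = 0.658 by edgeR). Ndufa10, an accessory subunit of complex I, had control counts of 1535, 0 and 849 and DM counts of 40, 1 and 0 (log2 fold change -6.03, SE 3.50). In the other direction, the smallest p-values belonged to Ndufa13 (log2 fold change 3.75, SE 2.96) and Ndufa3 (log2 fold change 3.58, SE 3.18). Ndufa13 had control counts of 180, 0 and 0 and DM counts of 19, 0 and 505. Ndufa3 had control counts of 550, 9 and 1 and DM counts of 1, 50 and 1405. Without primordial DM 3 the log2 fold changes of Ndufa13 and Ndufa3 were -1.83 and -1.78. DESeq2 called 1 of the 89 members it fitted, against 4.2% of genes. This was Ndufa8, an accessory subunit of complex I, with 979, 1134 and 1 counts in controls and 0 in all 3 DM libraries. It did not pass the edgeR filter, because too few libraries had enough counts. Its adjusted p was 0.00465 in DESeq2 and 0.418 to 0.675 in the other edgeR settings that tested it. By a limit of 3 counts per library, which covers counting error only, its mean level was at least 184-fold lower. The DESeq2 value and this limit rest on primordial controls 1 and 2. The control libraries themselves spanned 1 to 1134 counts, and leaving out a control library gave limits of 127-fold to 276-fold. The median log2 fold change of the members tested was 0.47, and that of all genes tested was 0.13.

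In oocytes from primary follicles, 0 of 25 members tested by edgeR passed (background 0%), and 2 had an unadjusted p under 0.05, both lower (8.11% of genes, and 4.04% higher). The log2 fold change was above 0 in 15 of the 25, against 52.6% of genes. Cox7a2l had control counts of 539, 1875 and 25883 and DM counts of 28, 18 and 9, without overlap (log2 fold change -9.88, SE 4.45, adjusted p = 0.395 by edgeR). Ndufb9, an accessory subunit of complex I that overlaps a predicted gene on the same strand, had control counts of 17, 1313 and 255 and DM counts of 0, 0 and 5 (log2 fold change -7.88, SE 3.64). The other member without overlap was Cox6a1, with control counts of 213, 25 and 358 and DM counts of 1, 11 and 0 (log2 fold change -5.70, SE 3.18). Without overlap were 2 members lower and 0 higher, and 10.4% and 2.87% of all genes tested. Higher values with the smallest p belonged to Ndufa6 (log2 fold change 6.23, SE 3.50), with 2803 counts in primary DM 3 and 1 and 2 in the other DM libraries, and to Atp5l, the g subunit of ATP synthase (log2 fold change 7.14, SE 4.04), with 11162 counts in primary DM 2 and 29 and 3 in the others. Each rests on 1 library, and without it their log2 fold changes were -2.78 and -1.15. DESeq2 called 2 of the 80 members it fitted, against 5.12% of genes, Atp5g1 (adjusted p = 0.0402) and Ndufb9 (adjusted p = 0.0463). Atp5g1 had control counts of 6627, 2309 and 1 and DM counts of 2, 3 and 4, so its groups overlapped. The medians were 0.12 over members and 0.31 over all genes tested, and without primary DM 3 they were -3.93 and -2.08. Without primary control 3, 10 of 45 members tested had an unadjusted p under 0.05 (22.2%), and so did 18.8% of all genes. Without primary control 2 it was 1 of 27 (6.72% of genes), and without primary DM 1 it was 1 of 45 (10.4% of genes).

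Primary follicles were compared with primordial follicles under each treatment to follow the start of follicle growth. In controls, 0 of 48 members tested by edgeR passed (background 0%), and 2 had an unadjusted p under 0.05, 1 higher (2.99% of genes) and 1 lower (3.45%). The log2 fold change was above 0 in 22 of the 48, against 45.7% of genes. Ndufb7, a complex I subunit, had 80, 1195 and 122 counts in primordial and 0, 4 and 0 in primary follicles (log2 fold change -7.60, SE 3.82, adjusted p = 0.749 by edgeR). DESeq2 called it, the only member called of the 87 that DESeq2 fitted (adjusted p = 0.0434, against 1.78% of genes called). Sdhb was lower without overlap, with 393, 4090 and 131 counts in primordial and 71, 31 and 24 in primary follicles (log2 fold change -4.25, SE 3.38). Without overlap were 3 members lower, the third being Atp5a1, and 1 higher, Cox5b of complex IV, against 7.63% and 1.92% of genes. Among the higher values with the smallest p was that of Ndufa9 (log2 fold change 6.73, SE 3.74), which had 1319 counts in primary control 2 and 13 and 0 in the others. Medians were -0.34 over members and -0.31 over all genes tested.

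After DM, 9 members were lower in every primary library than in any primordial one and 2 were higher, against 12.1% and 4.16% of all genes tested. Of the 27 members tested, 10 were of complex V, and so were 6 of the 9. The other members of the 94 did not pass the filter on low counts. A member that passed it only through the primordial libraries had to come out lower, so counts over those tested support nothing by themselves. No member of the 27 tested passed in edgeR (0, background 0%), 10 had an unadjusted p under 0.05, 8 of them lower and 2 higher, and all genes tested gave 11.7% lower and 5.54% higher. The log2 fold change was above 0 in 13 of the 27, against 53.3% of genes. The 10 of 27 (37%, against 17.2% of genes) became 2 of 32 without primordial DM 1 (11.3% of genes), 4 of 44 without primary DM 2 (10.6%), and 6 of 42 without primary DM 1 (11.2%) or 3 (9.69%). With no filter on low counts they were 7 of 79 (8.86%, against 13% of genes). The 9 lower without overlap were Atp5a1, Atp5c1, Atp5g1, Atp5g2, Atp5g3 and the Atp5o row of complex V, which cannot be told apart from Donson, Cox5a and Cox7a2l of complex IV and Ndufs8 of complex I. Counted over all 94 members, 5 had at least 10 counts in all 3 primordial DM libraries and fewer in all 3 primary DM libraries (5.32%, against 1.11% of protein-coding rows), namely Atp5c1, Atp5g1, Atp5g2, Ndufs8 and the same Atp5o row, and 0 went the other way (0.0639%). In controls that pattern held for 1 member, Ndufb7 (1.06%, against 0.680%).

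Ndufs8, an iron-sulfur subunit of complex I, had the smallest p of these members. It had 86, 73 and 11 counts in primordial DM and 0 in all 3 primary DM libraries (log2 fold change -8.14, SE 2.85, adjusted p = 0.286 by edgeR). The Atp5o row, which holds the reads of Donson, had 5376, 12 and 100 counts against 1, 0 and 2 (log2 fold change -9.13, SE 3.79). Among those higher was Ndufs3 (log2 fold change 6.13, SE 2.95), for which 1 library decides, since without primary DM 2 its log2 fold change was -5.59. Uqcrc2 was higher without overlap. DESeq2 called 8 of the 79 members it fitted, against 7.03% of genes. The lowest adjusted p was that of Cox5a, a subunit of complex IV, with 6432, 65 and 20249 counts in primordial DM and 11, 9 and 8 in primary DM (adjusted p = 0.00366 in DESeq2). The others it called lower were Atp5g1 (0.00836), Cox7a2l (0.0104), Ndufs4 (0.0133), Atp5c1 (0.0167), the Atp5o row (0.0222) and Atp5a1 (0.0296), each an adjusted p. Atp5c1, the gamma subunit that turns inside ATP synthase, had 3148, 1319 and 79 counts against 3, 1 and 2. Ndufs4 had 14894, 7384 and 4 counts against 4, 5 and 5, so primordial DM 3 was as low as the primary libraries. Ndufa11, which DESeq2 called higher (adjusted p = 0.0396), had 38 counts in primary DM 2 and 0 in the other 5 libraries. Medians were -0.10 over members and 0.35 over all genes tested, and without primary DM 1, 2 and 3 that of the members was -3.45, -5.20 and -3.79 and that of all genes -2.51, -1.27 and -1.80. Fewer protein-coding rows were counted in the primary DM libraries, and the part of this in these differences was not tested.

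**Figure D4:**
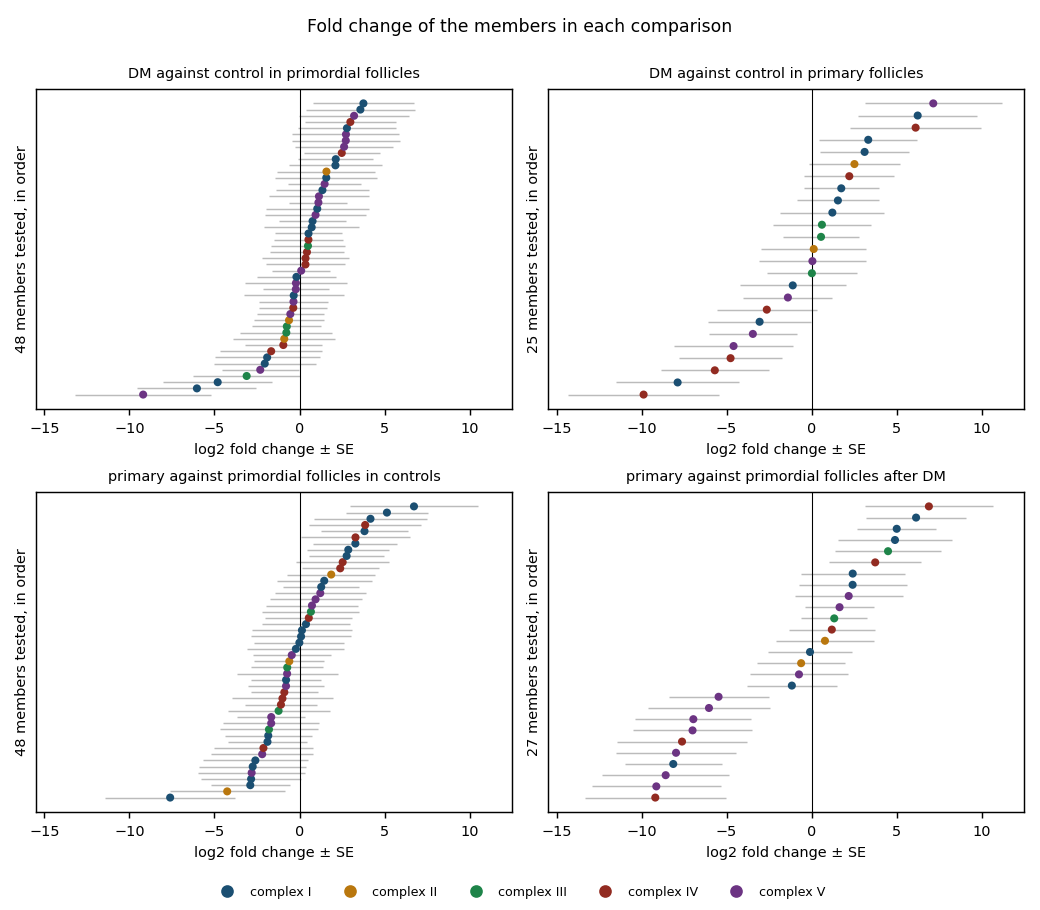
Log2 fold change of each member tested (points, coloured by complex) with its standard error (lines) in the 4 comparisons of edgeR, in order of size. In primary against primordial follicles after DM, 10 points lie between -9.20 and -5.48, and 7 of them are rows of complex V, among them the Atp5o row that holds reads of Donson. A member that passed the filter on low counts only through the primordial libraries had to come out lower, so this grouping supports nothing by itself.

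**Figure D5:**
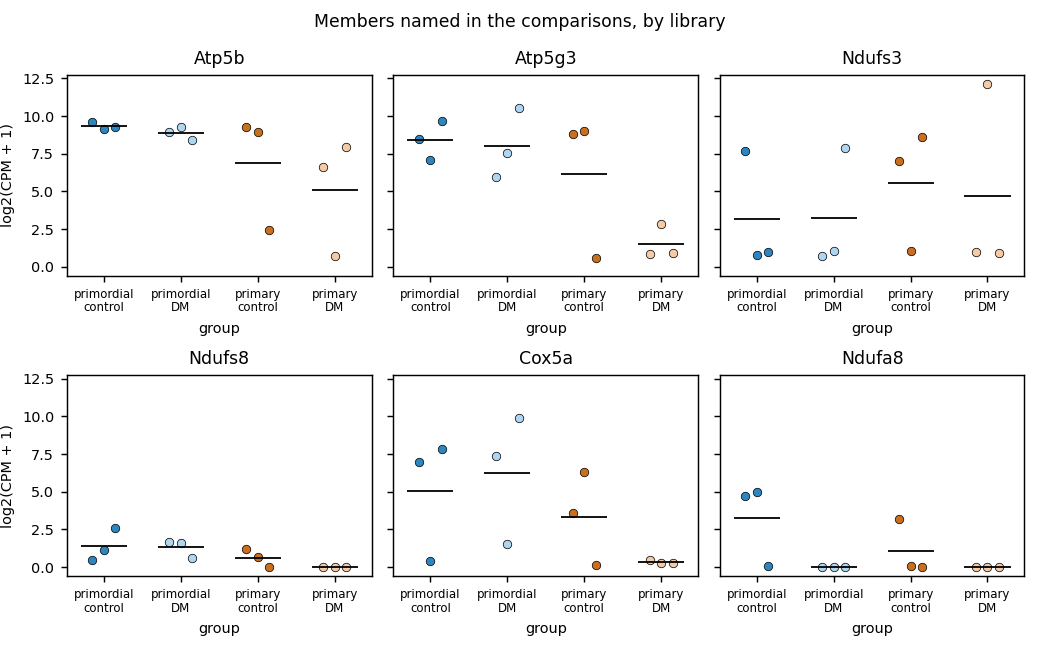
Level of 6 members in each library, as log2 of CPM plus 1, by group, with lines at the group means. Atp5b and Atp5g3 are lower in primary control 3 and primary DM than in the other 8 libraries, Cox5a is low there and in primordial control 2, Ndufs3 is highest in primary DM 2, Ndufs8 is at 0 in primary DM and primary control 3, and Ndufa8 is at 0 in both DM groups.

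Fits over all 12 libraries gave no member past the threshold in edgeR. For DM against control over both stages, 0 of 61 members passed (background 0%) and 5 had an unadjusted p under 0.05, 4 of them lower (9.58% of genes) and 1 higher (3.19%), with 22 of 61 above 0 (44.2% of genes). Ndufa8 had the smallest p (log2 fold change -10.83, SE 3.26, adjusted p = 0.166 by edgeR). It was the only member called of the 89 that DESeq2 fitted (adjusted p = 0.0135, against 3.54% of genes). Ndufa8 had 282, 1 and 0 counts in primary controls and 0 in all 6 DM libraries. Ndufb11, an accessory subunit of complex I, followed (log2 fold change -7.83, SE 2.83), and its level came mostly from primary control 1, with 2502 counts. Higher values with the smallest p were those of Atp5l (log2 fold change 5.42, SE 2.75) and Ndufa3 (log2 fold change 4.68, SE 2.52). Ndufa3 had 5244 counts in primary DM 3, 1405 in primordial DM 3 and at most 50 in the other DM libraries, and its value was -2.01 with the replicate number as a block. For primary against primordial follicles over both treatments, 0 of 61 passed (background 0%) and 5 had an unadjusted p under 0.05, 3 higher (3.45%) and 2 lower (8.26%), with 27 of 61 above 0 (44% of genes). Ndufs3 (log2 fold change 5.29, SE 1.87, adjusted p = 0.237 by edgeR) was higher, and Ndufb7 (log2 fold change -7.49, SE 2.95) and Ndufb2 (log2 fold change -4.76, SE 2.10) were lower. DESeq2 called 2 of 89 members, against 3.36% of genes, Uqcrc2 (adjusted p = 0.0122) and Uqcr10, a small subunit of complex III with 84 counts at most (adjusted p = 0.0335). In no member did the groups of these 2 comparisons fail to overlap (0 members, against 0.141% of genes higher and 0.388% lower for DM, and 0.0353% and 0.353% for stage). For the interaction of stage and DM, 0 of 61 members passed (background 0%), and 6 had an unadjusted p under 0.05, 2 positive (9.11% of genes) and 4 negative (9.78%), with 30 of 61 above 0 (47.6% of genes). DESeq2 called 2 of 89 members, against 3.31% of genes, Atp5j (adjusted p = 0.0389) and the Atp5o row (adjusted p = 0.0463).

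The spread between libraries of a group sets what these tests could show. The biological coefficient of variation over all genes was 1.76 to 2.06, and the median standard error of a member's log2 fold change was 2.59 to 3.06 outside the interaction. Libraries of the same group were no more alike over the members than libraries of different groups, with a median Spearman rho of 0.54 over 12 pairs and 0.54 over 54 pairs. Over protein-coding rows the values were 0.73 and 0.72. Of 21897 protein-coding rows, 8784 had no count in any library, against 5 of 94 members, so members and protein-coding rows are not compared on like terms here. Members of a complex hardly moved together. Over 57 members counted in at least 3 libraries, the median rho across the 12 libraries was 0.12 for the 427 pairs within a complex, 0.10 for the 1169 pairs between complexes and 0.06 for pairs of all 8288 such genes. These pairs share libraries, and the correlations are descriptions.

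Detection went with the merged length of a gene's annotated exons, which can exceed the length of any 1 transcript. The median exon length of the members was 1560 bases, and that of protein-coding rows was 3504. Of 25 members of up to 1000 bases, 1 had at least 10 counts in 6 or more libraries and 10 in none. Of 22 members of over 2000 and up to 4000 bases the numbers were 13 and 2. Members of over 4000 bases did not go further, with 5 and 1 of 11. The Spearman rho between length and the number of libraries was 0.44 over members and 0.46 over protein-coding rows. The short Cox7a2, Cox8a and Uqcr10 thus stand among genes that are counted seldom at that length.

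Of the other genes of the pathway, none was called by edgeR in any comparison. Of 13 protein-coding genes of the mitochondrial genome, mt-Co2, mt-Co3, mt-Atp6, mt-Atp8, mt-Nd3 and mt-Nd4l were listed at 0 in all 12 libraries, and the others summed to 29 to 1320 counts per library, at most 37.8 CPM. The methods name both a TruSeq RNA Access kit and Smart-seq II for library preparation, and the part of the preparation or counting in these low values was not tested. mt-Cytb, the cytochrome b of complex III, had at least 10 counts in all libraries, from 13 to 219, and mt-Co1, the catalytic subunit of complex IV, in 11. Slc25a3, the phosphate carrier, was the highest of the carriers, with 10923, 7539 and 1415 counts in primordial control, 20272, 24034 and 20964 in primordial DM, 29243, 2349 and 14 in primary control and 3274, 229 and 14 in primary DM. Its lowest libraries were primary control 3 and primary DM 3. Cyc1, the cytochrome c1 of complex III, had 650 counts at most, and somatic cytochrome c, Cycs, had 983, while the testis form Cyct had none. In primordial follicles 5 of 37 assembly factors outside the rule were tested for DM, and 4 had a positive and 1 a negative log2 fold change. Of 12 regulators of the pathway, 6 were tested there, 2 with a positive and 4 with a negative value. Ppargc1a, a coactivator that AMPK is known to act on, had 734 counts in primordial DM 1, 26 in primordial control 3 and 1 or 0 in the rest, while Esrra had 9 at most. Of 13 rows that meet the symbol pattern without being protein-coding, 8 were at 0 throughout and the highest count was 52.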

How the data were processed

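The deposited files hold raw counts per gene in 12 libraries. According to the labels the authors trimmed reads with Trim Galore, mapped them to mm10 with STAR (the methods name TopHat2) and counted them with featureCounts, and the strand and overlap settings are not given in the sources used here. The labels call the material in vivo and the methods describe cultured ovaries. Symbols, types and exon lengths came from GENCODE M21 (GRCm38, the same build), which matched 55141 of 55401 identifiers. No libraries of a group agreed within counting noise (chi-square over degrees of freedom of 1588 or more), so none was taken for a repeat deposit. Amplified reads exceed that noise also in technical repeats, so this does not show that libraries are independent.

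All genes were fitted with edgeR 4.0.16 in R 4.3.3 (filterByExpr, TMM, glmQLFit and glmQLFTest, prior count 0.125) with Benjamini-Hochberg adjustment over all genes tested and a threshold of 0.05, and DESeq2 1.42.0 was the alternative. Standard errors were derived from the fold change and the F statistic, and groups were called not overlapping from TMM-normalized CPM. The code was tested on simulated counts. Tables used Python 3.11.15 with SciPy 1.17.1.

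Named members were core subunits, the 2 highest per kb in each complex, isoform sets, up to 2 with the smallest p in each direction of a comparison, those called by either tool and those with at least 10 counts in all 12 libraries. Counts and sums cover all 94 members, of which 1 is not reported here by itself. Genes named for other reasons were chosen after their values were seen. The members and all lists were chosen with earlier results of these data known.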

Additional observations from a re-analysis of the deposited data

How the results depend on the processing

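No member passed the adjusted threshold under any edgeR setting or with any library left out (0 in all 7 comparisons, lowest and highest 0). DESeq2 called 1 of 89 members for DM in primordial, 2 of 80 for DM in primary, 1 of 87 for stage in controls and 8 of 79 for stage after DM. Over all libraries it called 1 of 89 for DM, 2 of 89 for stage and 2 of 89 for the interaction. The shares of all genes called stand with each comparison above. Among the members called by DESeq2, the lowest adjusted p under any edgeR setting was 0.135, and the cause was not tested.

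The number of members at an unadjusted p under 0.05 depended on the setting, as did the share of all genes tested, given in parentheses. For DM in primordial follicles it was 1 of 48 (7.33%), but 5 of 89 in DESeq2 (9.28%), 7 of 89 without a filter (10.7%), 0 of 12 with at least 10 counts in every library (5.32%), 5 of 61 with all 12 libraries in 1 fit (11.2%), and 2 to 5 with a library left out (6.64% to 10.2%). For DM in primary follicles it was 2 of 25 (12.2%), but 4 of 80 in DESeq2 (11.4%), 4 of 25 with DESeq2's size factors (15.7%), 5 of 80 without a filter (11%), 0 of 6 with the strict filter (15%), 12 of 61 with all 12 libraries (23%), and 1 to 10 with a library left out (6.56% to 18.8%). For stage in controls it was 2 of 48 (6.44%), but 4 of 87 in DESeq2 (7.51%), 0 of 48 with library size alone (3.57%), 1 of 87 without a filter (8.47%), and 0 to 1 with a library left out (4.99% to 6.76%). For stage after DM it was 10 of 27 (17.2%), 8 of 27 with DESeq2's size factors (14.8%) and 9 of 27 with library size alone (19.4%). In DESeq2 it was 10 of 79 (12.7% of members and 12.7% of genes), and with all 12 libraries in 1 fit 14 of 61 (23.0% against 25.7%). Without a filter it was 7 of 79 (13%), with the strict filter 2 of 5 (14.1%), and with a library left out 2 to 10 (9.69% to 16%). For DM over both stages it was 5 of 61 (12.8%), but 1 of 89 in DESeq2 (7.54%), 8 of 89 without a filter (13%), 0 of 5 with the strict filter (3.6%), and 3 to 10 with a library left out (11.8% to 17.7%). For stage over both treatments it was 5 of 61 (11.7%), but 8 of 89 in DESeq2 (7.93%), 8 of 61 with DESeq2's size factors (12.6%), 1 of 5 with the strict filter (5.36%), and 4 to 10 with a library left out (11% to 16.5%). For the interaction it was 6 of 61 (18.9%), but 0 of 5 with the strict filter (13.6%), and 4 to 8 with a library left out (14.1% to 17.8%).

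The replicate numbers showed no pairing of the libraries (correlations of deviations between same-numbered libraries of 2 groups from -0.06 to 0.05). With the spread between libraries, these correlations cannot decide whether same-numbered libraries share ovaries or a batch, and the sources do not say. With the replicate block, the numbers at an unadjusted p under 0.05 were 0, 0, 1, 1, 4, 3 and 0 in the order above (1.38% to 8.65% of all genes), the median log2 fold change for DM in primary follicles was -3.00, and that of Ndufa6 there was -1.69 and that of Ndufa3 for DM over both stages -2.01.

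Median log2 fold changes of members ranged over left-out libraries from -0.40 to 0.44 for DM in primordial, -3.93 to 0.80 for DM in primary, -1.43 to 0.18 for stage in controls and -5.20 to 0.33 for stage after DM. Scaling moved all genes. For DM in primary follicles the median of all genes was 0.31 with TMM, 2.12 with DESeq2's size factors and -0.96 with library size alone, and that of the members 0.12, 1.60 and -0.76. With a library left out, log2 fold changes ranged from -1.83 to 11.23 for Ndufa13 and -1.78 to 7.56 for Ndufa3 (DM in primordial), -2.78 to 7.02 for Ndufa6 and -1.15 to 8.45 for Atp5l (DM in primary) and -5.59 to 13.02 for Ndufs3 (stage after DM).

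With TMM-normalized CPM, the member sum averaged 1439 ± 131 (SD, n = 3) in primordial control, 2782 ± 991 in primordial DM, 6511 ± 8562 in primary control and 19992 ± 25435 in primary DM. Single libraries carry the last 2, since the values were 1837, 1302 and 16392 in primary control and 3773, 49306 and 6897 in primary DM. With at least 1 count, 67.3, 57.0, 55.0 and 39.7 members were counted per library in primordial control, primordial DM, primary control and primary DM, with at least 50 counts 24.0 in primordial DM and 11 in primary DM, and after thinning 15.3 in primary DM. With 3 libraries a group and this spread, single libraries decide many values.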
